A study of Mus musculus with 11 samples.

Results

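Cells make cholesterol from acetyl-CoA through the mevalonate pathway, which first builds isoprenoid diphosphates, then joins them into squalene, closes squalene into lanosterol and trims lanosterol to cholesterol. The pathway is set mainly by the transcription factor SREBP2 (encoded by Srebf2). SREBP2 is made as a precursor in the endoplasmic reticulum membrane, held there by the escort protein SCAP and the INSIG proteins while sterols are plentiful, and carried to the Golgi, where the proteases S1P and S2P release its active part, when sterols are scarce. In muscle, the pathway supplies membrane cholesterol for the plasma membrane and its invaginations and the isoprenoids that anchor small GTPases.

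The members described here are 33 genes named for these steps: 20 enzymes, 7 genes of the SREBP machinery and 6 genes of sterol transport, esterification, efflux and efflux control. Each was found in the count table by its Ensembl identifier, so 33 of the 15113 genes in the table are members. The list does not hold every gene of the pathway. After a filter on low counts 32 of the 33 could be tested; Abca1 did not pass it.

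Messenger RNA was measured in C2C12, a mouse myoblast line that differentiates into multinucleated myotubes, by QuantSeq, which counts 1 tag near the 3′ end of each polyadenylated transcript. The 5 shDRP1 libraries came from cells with a short hairpin RNA against Drp1, the mitochondrial fission GTPase encoded by Dnm1l, and the 6 shRandom libraries from cells with a random hairpin. Both groups were labelled as early stage myotubes at passages 2 to 5. The sources used here do not say how the hairpins were delivered or whether each group was 1 clone or a pool. The labels do not tie the libraries to separate cultures; each p-value is therefore set against library-to-library spread, part or all of which may be technical.

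Total counts ran from 12277622 to 23082617 per library and did not separate the groups (two-sided exact permutation test over 462 splits, p = 0.361). Dnm1l was at 18.7 ± 2.58 CPM (SD, n = 5; tag counts scaled to a common library size) in shDRP1 libraries and 78.6 ± 8.63 CPM (SD, n = 6) in shRandom libraries, with no overlap. The 8 skeletal muscle markers examined, Myod1, Myog, Mymk, Myh3, Acta1, Ckm, Tnnc1 and Des, were all lower in shDRP1 libraries, where they summed to 142 to 197 CPM, against 10479 to 11855 CPM in shRandom libraries. The shDRP1 mean was 0.0987 times that of shRandom for Des. For the other markers this ratio ran from 0.00477 (Mymk) to 0.0190 (Myod1). Smooth muscle markers summed to 8196 to 9968 CPM in shDRP1 libraries and 2680 to 3220 CPM in shRandom libraries (3 of 4 tested higher), with Cnn1, Acta2 and Tagln higher and Smtn not called. Adipocyte markers (Fabp4, Pparg and Lpl) summed to 7.72 to 13.9 CPM in shDRP1 and 10.5 to 16.4 CPM in shRandom libraries, but went different ways. Lpl was lower (log2 fold change -0.66, edgeR adjusted p = 0.0060) and Pparg higher (0.98, edgeR adjusted p = 0.0094), and Fabp4, which did not pass the filter, averaged 0.762 CPM in shDRP1 and 0.0528 CPM in shRandom libraries with no overlap. Macrophage markers (Csf1r, Cd68 and Cd14) summed to 3.14 to 5.92 CPM in shDRP1 and 2.94 to 4.16 CPM in shRandom libraries, with Cd14 higher (log2 fold change 1.23, edgeR adjusted p = 0.00040), Csf1r lower (-1.03, edgeR adjusted p = 0.0029) and Cd68 not called. Tek, the 1 endothelial marker with a row, was at 0.0773 to 0.567 CPM in shDRP1 and 0 to 0.318 CPM in shRandom libraries. Adipoq, Plin1, Cidec, Ptprc, Adgre1, Tyrobp, Pecam1, Cdh5, Kdr, Emcn and Myh11 were not analysed here. The part of this change of cell state in the results that follow was not tested. In bulk cultures, fewer cells of a kind and less RNA per cell cannot be told apart.

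Most enzymes of cholesterol synthesis were higher in shDRP1 cells. Of the 20 enzymes, 16 were called higher at an adjusted p under 0.05 (edgeR quasi-likelihood test, Benjamini-Hochberg over 13025 genes), 1, Ebp, was called lower, and Ggps1, Fdft1 and Dhcr7 were not called. Of all genes tested, 67.1% were called, 33.9% higher and 33.3% lower, so a call alone is common in this comparison. Over the 32 members tested, 22 were higher, 2 lower and 8 not called, with a median log2 fold change of 0.64, against 0.03 over all genes tested. With a log2 fold change of at least 0.5 in size as well, 17 members were higher and 2 lower, where 23.3% and 22.8% of all genes tested were. The groups did not overlap for 19 members that were higher and 2 that were lower; of all genes tested 48.9% did not overlap, 23.5% being higher and 25.4% lower. Summed over the 20 enzymes, the level was 2174 to 2698 CPM in shDRP1 libraries and 1147 to 1463 CPM in shRandom libraries.

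**Figure D1:**
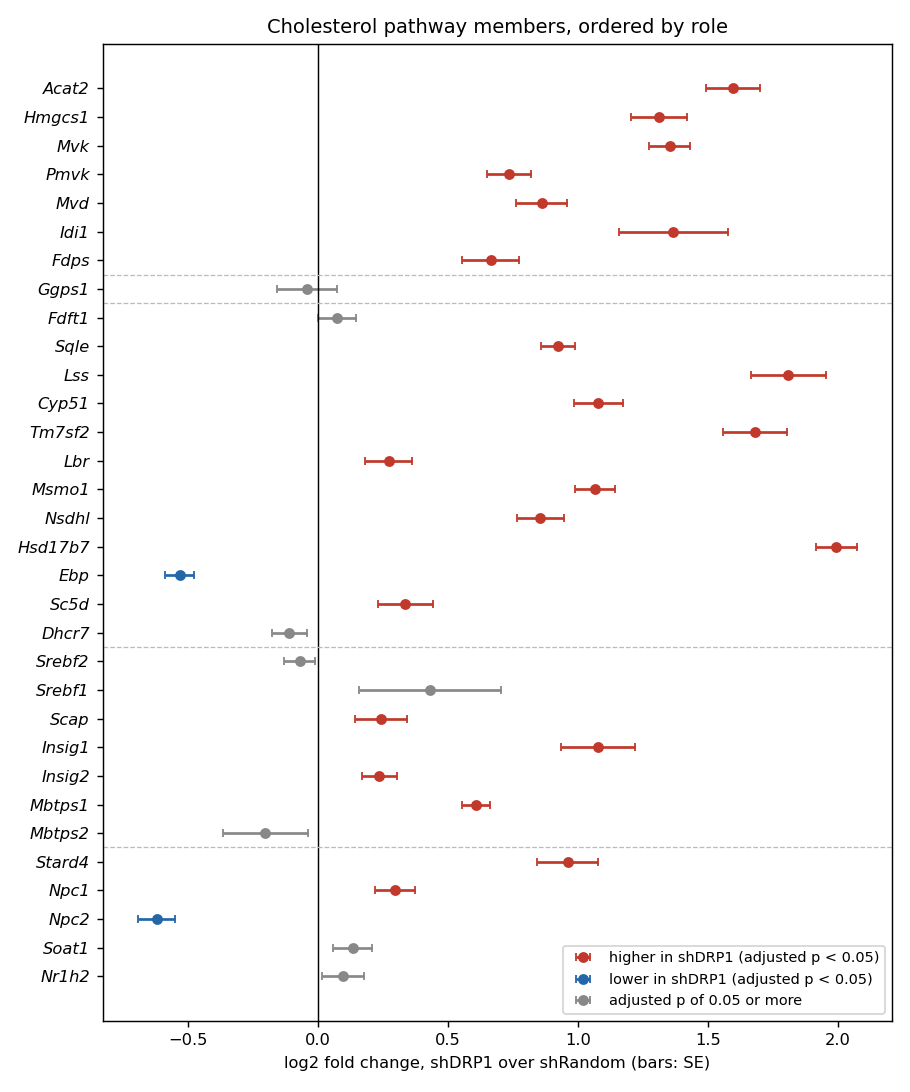
Log2 fold change of each tested member, shDRP1 over shRandom, with its standard error, in pathway order from top to bottom (dashed lines separate the steps to farnesyl diphosphate, the isoprenoid branch, the sterol steps, the SREBP machinery and transport). The 7 steps to farnesyl diphosphate lie to the right of 0, Hsd17b7 lies farthest right at 1.99, and Ebp and Npc2 are the members called lower.

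The 7 enzymes from acetyl-CoA to farnesyl diphosphate were all higher in shDRP1 libraries, with no overlap between the groups and log2 fold changes from 0.66 to 1.59. Acat2 (ENSMUSG00000023832, GRCm38 chr17:12942890-12960747, minus strand), the cytosolic thiolase that joins acetyl-CoA units, was at 186, 186, 159, 173 and 202 CPM in shDRP1 replicates 1 to 5, against a lowest, median and highest of 50.9, 57.4 and 77.5 CPM in shRandom libraries. Every shDRP1 library therefore lay above every shRandom library, and the log2 fold change was 1.59 (SE 0.10, edgeR adjusted p = 4.7e-09). Hmgcs1 (ENSMUSG00000093930, chr13:119690379-119708260, plus strand) makes HMG-CoA, the substrate of the step that commits carbon to the pathway. Its shDRP1 values were 694, 644, 490.0, 568 and 696 CPM, against 214, 239.8 and 302 CPM as the lowest, median and highest of shRandom. The lowest shDRP1 value, in replicate 3, still exceeded the highest of shRandom, and the log2 fold change was 1.31 (SE 0.11, edgeR adjusted p = 6.5e-08).

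Mevalonate kinase, Mvk (ENSMUSG00000041939, chr5:114444269-114460591, plus strand), adds the first phosphate to mevalonate, and Pmvk the next. Mvk was at 66.8, 63.6, 54.9, 57.1 and 57.8 CPM in shDRP1 libraries, against 19.96, 23.9 and 25.7 CPM as the lowest, median and highest of shRandom. The log2 fold change of Mvk was 1.35 (SE 0.08, edgeR adjusted p = 1.2e-09), the smallest adjusted p of the 7 enzymes. Pmvk was at 54.0, 53.4, 57.8, 65.6 and 66.5 CPM in shDRP1 libraries, against 32.5, 34.4 and 41.8 CPM in shRandom libraries. For Pmvk the gap between the groups was narrower, with a log2 fold change of 0.73 (SE 0.08, edgeR adjusted p = 2.6e-06). The decarboxylase Mvd, which turns the diphosphate into isopentenyl diphosphate, was at 70.4, 64.8, 61.9, 68.4 and 80.9 CPM in shDRP1 libraries, against 33.3, 37.3 and 48.6 CPM in shRandom libraries. Its log2 fold change was 0.86 (SE 0.10, edgeR adjusted p = 2.2e-06), and the highest shRandom value was that of replicate 4.

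The isomerase Idi1 and the synthase Fdps complete this stretch. Idi1, which interconverts the isoprenoid building blocks, was at 2.49, 1.93, 2.32, 2.35 and 2.68 CPM in shDRP1 libraries, against 0.464, 0.979 and 1.16 CPM in shRandom libraries. Its log2 fold change of 1.37 had the widest error of the called enzymes (SE 0.21, edgeR adjusted p = 4.0e-05), at a level of a few CPM. Fdps, which builds farnesyl diphosphate, was at 115, 120.0, 88.1, 107 and 132 CPM in shDRP1 libraries, against 58.2, 72.0 and 81.2 CPM in shRandom libraries. The log2 fold change of Fdps was 0.66 (SE 0.11, edgeR adjusted p = 9.8e-05), the smallest of the 7. The last 500 bases of the longest Fdps transcript match those of processed pseudogenes at 95% identity or more, of which Gm3571 had 35 counts in all libraries together.

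Farnesyl diphosphate either goes on to squalene or is lengthened to geranylgeranyl diphosphate, the lipid that anchors many small GTPases, by Ggps1. Ggps1 was at 24.3 ± 4.13 CPM (SD, n = 5) in shDRP1 and 25.1 ± 2.92 CPM (SD, n = 6) in shRandom libraries. The groups overlapped and the log2 fold change was -0.04 (SE 0.12, edgeR adjusted p = 0.75); its sign turned under 2 other scalings and without shDRP1 replicate 2.

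**Figure D2:**
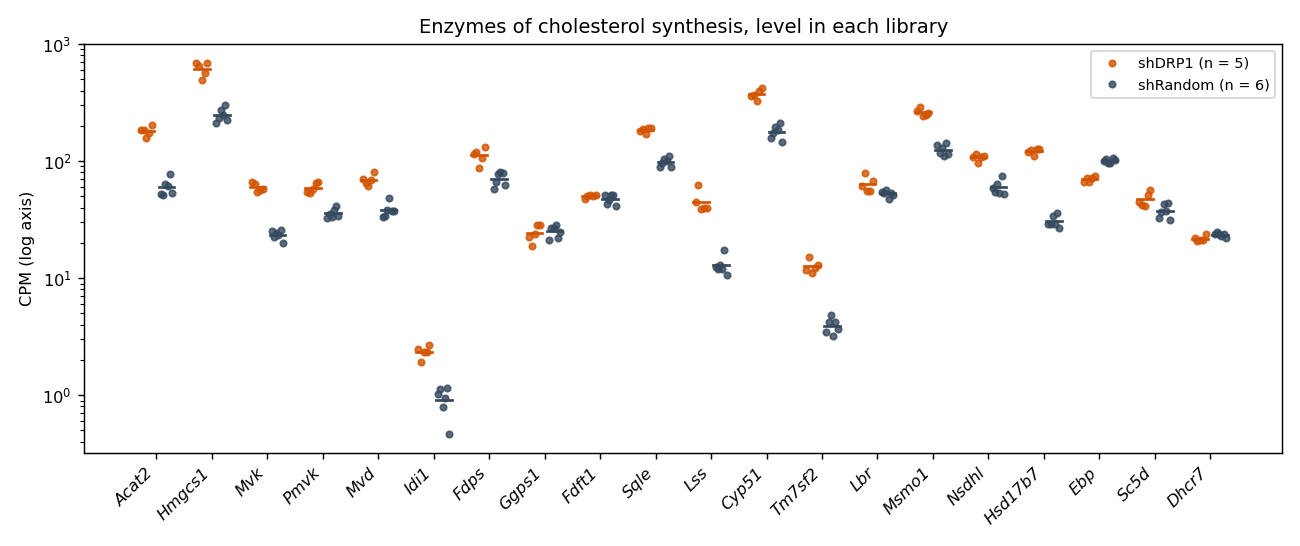
Level of each of the 20 enzymes in CPM on a log axis, in pathway order, with 1 point per library and a bar at the group mean; shDRP1 libraries (n = 5) stand left of shRandom libraries (n = 6). The groups are separate for 14 enzymes that were higher and for Ebp, which was lower, and they overlap for Ggps1, Fdft1, Lbr, Sc5d and Dhcr7.

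The entry into sterols showed a step that was not called. Squalene synthase, Fdft1 (ENSMUSG00000021273, chr14:63145150-63179578, minus strand), which joins a pair of farnesyl diphosphates, was at 50.0 ± 1.51 CPM (SD, n = 5) in shDRP1 and 47.5 ± 4.70 CPM (SD, n = 6) in shRandom libraries. Its log2 fold change was 0.07 (SE 0.07, edgeR adjusted p = 0.39). The last 500 bases of the longest Fdft1 transcript lie fully within a transcript of Ctsb on the opposite strand, and the strand setting of the counting is not given in the sources used here. Ctsb, the lysosomal protease cathepsin B, was at 205 CPM in shDRP1 and 403 CPM in shRandom libraries (log2 fold change -0.97, edgeR adjusted p = 1.5e-07), so the Fdft1 value is uncertain. Sqle (ENSMUSG00000022351, chr15:59315077-59331192, plus strand), the squalene epoxidase and a rate-limiting step after mevalonate, was at 179, 190.0, 171, 194 and 193 CPM in shDRP1 libraries, against 88.9, 97.5 and 109.7 CPM in shRandom libraries. Sqle did not overlap between the groups and had a log2 fold change of 0.92 (SE 0.07, edgeR adjusted p = 1.4e-08).

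Lanosterol synthase, Lss (ENSMUSG00000033105, chr10:76531588-76557138, plus strand), closes the epoxide into the first sterol. It was at 44.8, 62.4, 38.8, 39.6 and 39.8 CPM in shDRP1 libraries, against 10.7, 12.2 and 17.4 CPM in shRandom libraries, with shDRP1 replicate 2 well above the others of its group. Its log2 fold change was 1.81 (SE 0.14, edgeR adjusted p = 4.8e-08), and it ran from 1.65 to 1.91 under every alternative tried. Cyp51 (ENSMUSG00000001467, chr5:4081145-4104746, minus strand), the lanosterol 14-demethylase, was at 361, 368, 329.8, 399 and 418 CPM in shDRP1 libraries, against 145, 179.7 and 211 CPM in shRandom libraries. The log2 fold change was 1.08 (SE 0.09, edgeR adjusted p = 1.2e-07). Its 3′ end overlaps that of Akap9 on the opposite strand, which was at 83.3 CPM in shDRP1 and 80.9 CPM in shRandom libraries (log2 fold change 0.04).

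Reduction of the double bond left by Cyp51 can be done by Tm7sf2 or by the lamin B receptor, Lbr, a nuclear envelope protein with the same reductase activity. Tm7sf2 was at 11.8, 15.2, 11.1, 12.2 and 12.9 CPM in shDRP1 libraries, against 3.20, 3.93 and 4.83 CPM in shRandom libraries. Tm7sf2 thus did not overlap, with a log2 fold change of 1.68 (SE 0.12, edgeR adjusted p = 1.8e-08). Lbr was at 64.1 ± 9.79 CPM (SD, n = 5) in shDRP1 and 53.0 ± 3.14 CPM (SD, n = 6) in shRandom libraries; the groups overlapped, and the log2 fold change was 0.27 (SE 0.09, edgeR adjusted p = 0.015). Within the last 500 bases of their transcripts, Lbr shares 440 bases with a Dnah14 transcript and Lss 109 bases with 4930483K19Rik, both on the opposite strand; neither partner was analysed here.

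The demethylation complex at carbon 4, formed by Msmo1, Nsdhl and Hsd17b7, was higher in all its parts. Msmo1, the methyl oxidase, was at 266, 292, 243, 248 and 259 CPM in shDRP1 libraries, against 110.4, 123 and 143 CPM in shRandom libraries. The log2 fold change of Msmo1 was 1.06 (SE 0.08, edgeR adjusted p = 1.4e-08). Nsdhl, the dehydrogenase that removes the carboxyl group, was at 108, 115, 96.4, 109 and 111 CPM in shDRP1 libraries, against 52.4, 57.0 and 75.3 CPM in shRandom libraries. Its groups did not overlap (log2 fold change 0.85, SE 0.09, edgeR adjusted p = 9.5e-07). Hsd17b7 (ENSMUSG00000026675, chr1:169949535-169969241, minus strand), the 3-ketosteroid reductase of the complex, was at 119.7, 124, 111, 128 and 127 CPM in shDRP1 libraries, against 26.8, 29.3 and 35.9 CPM in shRandom libraries. With a log2 fold change of 1.99 (SE 0.08, edgeR adjusted p = 1.4e-11), Hsd17b7 had the largest change of the 32 members tested, its shDRP1 mean being 3.98 times that of shRandom. Of the 12 tested genes within 1 Mb of Hsd17b7, 8 were higher and 2 lower, with a median log2 fold change of 0.64.

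The last steps differed from those before them. Ebp (ENSMUSG00000031168, chrX:8185329-8193512, minus strand), the sterol isomerase, was at 66.1, 71.8, 65.9, 71.7 and 73.9 CPM in shDRP1 libraries, against 96.0, 101 and 107 CPM in shRandom libraries. Ebp was thus lower in every shDRP1 library than in any shRandom library (log2 fold change -0.53, SE 0.06, edgeR adjusted p = 8.4e-07). Sc5d, the desaturase that follows, was at 47.3 ± 6.44 CPM (SD, n = 5) in shDRP1 and 37.6 ± 5.04 CPM (SD, n = 6) in shRandom libraries, with overlap and a log2 fold change of 0.33 (SE 0.11, edgeR adjusted p = 0.012). Dhcr7, the reductase at the end of the pathway, was at 21.8 ± 1.30 CPM (SD, n = 5) in shDRP1 and 23.5 ± 0.919 CPM (SD, n = 6) in shRandom libraries. The log2 fold change of Dhcr7 was -0.11 (SE 0.07, edgeR adjusted p = 0.16).

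Within a group, many enzymes had their lowest or highest value in the same library. In shDRP1 libraries, replicate 3 held the lowest value of 14 of the 20 enzymes and replicate 5 the highest of 12. In shRandom libraries, replicate 6 held the lowest value of 10 enzymes and replicate 5 the highest of 13. The median deviation from the group mean over the enzymes ran from -0.14 (replicate 3) to 0.11 (replicate 5) on the log2 scale in shDRP1 libraries and from -0.14 (replicate 6) to 0.19 (replicate 5) in shRandom libraries, well within the difference between the groups. The enzymes share library and scaling. The share of all genes with their lowest or highest value in these libraries was not counted, so the pattern is not shown to be particular to the enzymes. The percentage of counts on ribosomal RNA (Gm42418, mt-Rnr1 and mt-Rnr2) was 6.63, 4.555, 4.53, 7.075 and 8.72 in shDRP1 replicates 1 to 5. It was lowest in replicate 3 and highest in replicate 5. Replicate 2 was close to replicate 3 in this percentage and had a median enzyme deviation of 0.039. In shRandom replicates 1 to 6 the percentage was 4.14, 6.34, 7.10, 7.14, 7.13 and 6.63. The median enzyme deviations of these 6 libraries were -0.094, -0.041, 0.093, 0.013, 0.19 and -0.14. The part of this share in the common variation of the enzymes was not tested. With that share as a covariate, an alternative chosen after seeing the data, 16 enzymes were again called higher and 1 lower.

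**Figure D3:**
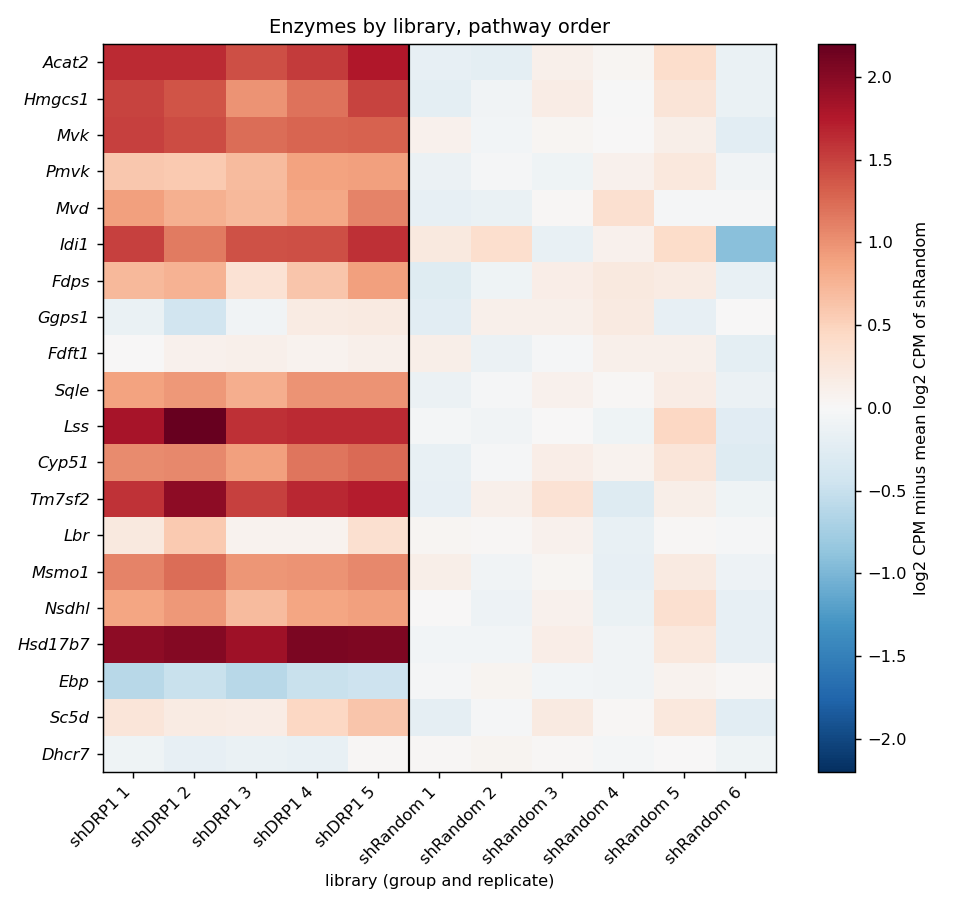
Log2 CPM of each enzyme (rows, pathway order) in each library (columns, shDRP1 left of the line and shRandom right of it), minus the mean of log2 CPM over the shRandom libraries; red is above that mean and blue below. Rows such as Hsd17b7, Lss and Tm7sf2 are red in every shDRP1 library, Ebp is blue in every one, and shDRP1 replicate 3 holds the lowest value of its group for 14 of the 20 enzymes.

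Promoter sequence was examined because so many of these enzymes moved together and because SREBP2 acts at sterol response elements beside the general factors NF-Y and Sp1. RefSeq promoters of GRCm38.p6, each from 250 bases before to 50 after an annotated start, were found for 28 of the 33 members; Sqle, Fdft1, Fdps, Stard4 and Npc1 had none in the table used. The motif letters searched on both strands were TCACNCCAC for the sterol response element, TCACGTGA for an SREBP E-box, CCAAT for NF-Y and GGGCGG for Sp1. Below are the bases from 200 to 41 before the start, 5′ to 3′ on the gene's strand, for 4 enzymes with large increases and for Ebp and Dhcr7, which were not higher. The choice did not follow the size of the change alone. Tm7sf2, Acat2 and Idi1 are not shown, although their log2 fold changes of 1.68, 1.59 and 1.37 exceeded those of Mvk and Hmgcs1. Their whole windows held 1, 0 and 2 NF-Y matches, and no sterol response element match. Capitals mark the motif matches on either strand, so ATTGG and CCGCCC are CCAAT and GGGCGG read on the other strand. No marked sites overlap each other.
Hmgcs1 (chr13:119690151-119690310, plus strand): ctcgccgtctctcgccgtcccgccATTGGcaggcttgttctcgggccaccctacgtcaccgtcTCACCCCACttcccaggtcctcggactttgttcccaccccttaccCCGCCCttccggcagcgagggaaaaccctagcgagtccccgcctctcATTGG
Mvk (chr5:114444069-114444228, plus strand): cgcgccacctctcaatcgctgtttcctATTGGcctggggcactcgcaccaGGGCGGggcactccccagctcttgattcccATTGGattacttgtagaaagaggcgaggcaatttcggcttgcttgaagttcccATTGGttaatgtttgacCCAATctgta
Lss (chr10:76531405-76531564, plus strand): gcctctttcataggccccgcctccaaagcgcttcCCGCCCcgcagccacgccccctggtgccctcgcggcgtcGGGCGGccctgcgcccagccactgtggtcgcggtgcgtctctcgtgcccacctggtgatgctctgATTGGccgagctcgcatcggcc
Hsd17b7 (chr1:169969246-169969405, minus strand): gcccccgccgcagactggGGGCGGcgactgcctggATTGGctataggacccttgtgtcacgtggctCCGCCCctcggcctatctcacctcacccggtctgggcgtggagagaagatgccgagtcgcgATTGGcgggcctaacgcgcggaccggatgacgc
Ebp (chrX:8193553-8193712, minus strand): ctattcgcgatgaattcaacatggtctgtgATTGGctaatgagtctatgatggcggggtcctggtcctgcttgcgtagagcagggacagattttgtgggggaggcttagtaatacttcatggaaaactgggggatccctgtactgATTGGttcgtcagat
Dhcr7 (chr7:143822967-143823126, plus strand): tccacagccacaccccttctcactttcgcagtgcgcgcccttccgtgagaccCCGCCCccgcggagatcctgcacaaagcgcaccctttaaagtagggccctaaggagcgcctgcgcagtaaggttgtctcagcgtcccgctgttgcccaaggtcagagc

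In these stretches Hmgcs1 holds the sterol response element match, Mvk holds 4 NF-Y matches, and Hsd17b7 and Ebp hold 2 NF-Y matches each. Dhcr7 holds 1 Sp1 match and no NF-Y match in the stretch shown, which comes from 1 of several annotated Dhcr7 promoters. Another, at chr7:143829964-143830263, holds 2 NF-Y and 3 Sp1 matches in its whole window. Over the whole windows, the CCAAT motif was found for 22 of the 28 members (78.6%), against 41.1% of all 27025 genes in the promoter table and 43.2% of the 9724 genes tested here that have a promoter. It was found for 15 of 18 members that were higher, for both members that were lower and for 5 of 7 that were not called. The Sp1 motif was found for 24 of 28 members (85.7%), against 38.2% of all genes and 69.2% of those tested here. The sterol response element motif was found for Hmgcs1 alone among the members (3.57%), against 1.44% of all genes and 1.36% of those tested here. The E-box was found for none of them, against 1.12% of all genes and 2.27% of those tested here. Only exact letters were counted, so a site that differs by 1 base was left out. The Hsd17b7 stretch holds tcacgtgg, which differs from the E-box letters by 1 base and is not marked. These counts describe letters in a short window and say nothing of binding.

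The genes that encode the SREBP factors did not follow the enzymes. Srebf2 (ENSMUSG00000022463, chr15:82147181-82205379, plus strand) was at 119 ± 5.69 CPM (SD, n = 5) in shDRP1 and 125 ± 8.79 CPM (SD, n = 6) in shRandom libraries. The groups overlapped, the log2 fold change was -0.07 (SE 0.06, edgeR adjusted p = 0.31), and its sign turned under 2 other scalings. Srebf1, whose products drive fatty acid synthesis more than cholesterol synthesis, was at 4.002, 9.59, 6.49, 4.99 and 3.72 CPM in shDRP1 libraries, against 2.82, 3.98 and 6.36 CPM in shRandom libraries. The groups overlapped, and its log2 fold change of 0.43 had the widest error of the 32 members tested (SE 0.27, edgeR adjusted p = 0.18). Its 3′ end overlaps that of Rai1 on the opposite strand, which was at 17.04 CPM in shDRP1 and 13.3 CPM in shRandom libraries (log2 fold change 0.36, edgeR adjusted p = 0.00032), so the Srebf1 value is uncertain too. The amount of mature SREBP protein was not measured.

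Among the sensors, Insig1 changed most. Insig1 (ENSMUSG00000045294, chr5:28071363-28078662, plus strand), which retains SCAP in the endoplasmic reticulum and is itself an SREBP target, was at 18.9, 22.3, 13.2, 18.2 and 22.6 CPM in shDRP1 libraries, against 7.26, 8.93 and 10.7 CPM in shRandom libraries. Every shDRP1 library was above every shRandom library, the lowest again being replicate 3, and the log2 fold change was 1.08 (SE 0.14, edgeR adjusted p = 1.0e-05). Insig2, the paralog with the same retaining role, was at 60.0 ± 4.22 CPM (SD, n = 5) in shDRP1 and 50.9 ± 3.33 CPM (SD, n = 6) in shRandom libraries. Its change was small, although the groups did not overlap (log2 fold change 0.24, SE 0.07, edgeR adjusted p = 0.0062). Scap, the sterol-sensing escort, was at 37.6 ± 4.89 CPM (SD, n = 5) in shDRP1 and 31.8 ± 3.87 CPM (SD, n = 6) in shRandom libraries, with overlap. Its adjusted p was 0.044 (log2 fold change 0.24, SE 0.10, edgeR), and the call was lost in 12 of 22 alternatives, with adjusted p-values from 0.0084 to 0.139 over all of them. Leaving out shDRP1 replicate 2, 3 or 4, or any shRandom replicate from 2 to 6, was each enough to lose it. The fit without shRandom replicate 6 is counted again among these alternatives, as the fit to replicates 1 to 5 without a block.

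Of the proteases that release SREBP, Mbtps1 was called higher and Mbtps2 was not called. Mbtps1 (ENSMUSG00000031835, chr8:119508156-119558735, minus strand), which encodes the site-1 protease, was at 258, 256, 278, 266 and 257 CPM in shDRP1 libraries, against 158, 175 and 181 CPM in shRandom libraries. The groups were clearly apart, with a log2 fold change of 0.61 (SE 0.05, edgeR adjusted p = 1.3e-07). Of 15 tested genes within 1 Mb of Mbtps1, 12 were higher and 3 lower, with a median log2 fold change of 0.63, about that of Mbtps1 itself; the part of the neighbourhood in the result was not tested. Mbtps2, the site-2 protease on chromosome X, was at 10.7 ± 2.08 CPM (SD, n = 5) in shDRP1 and 12.3 ± 2.70 CPM (SD, n = 6) in shRandom libraries, with overlap (log2 fold change -0.20, SE 0.16, edgeR adjusted p = 0.29).

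**Figure D4:**
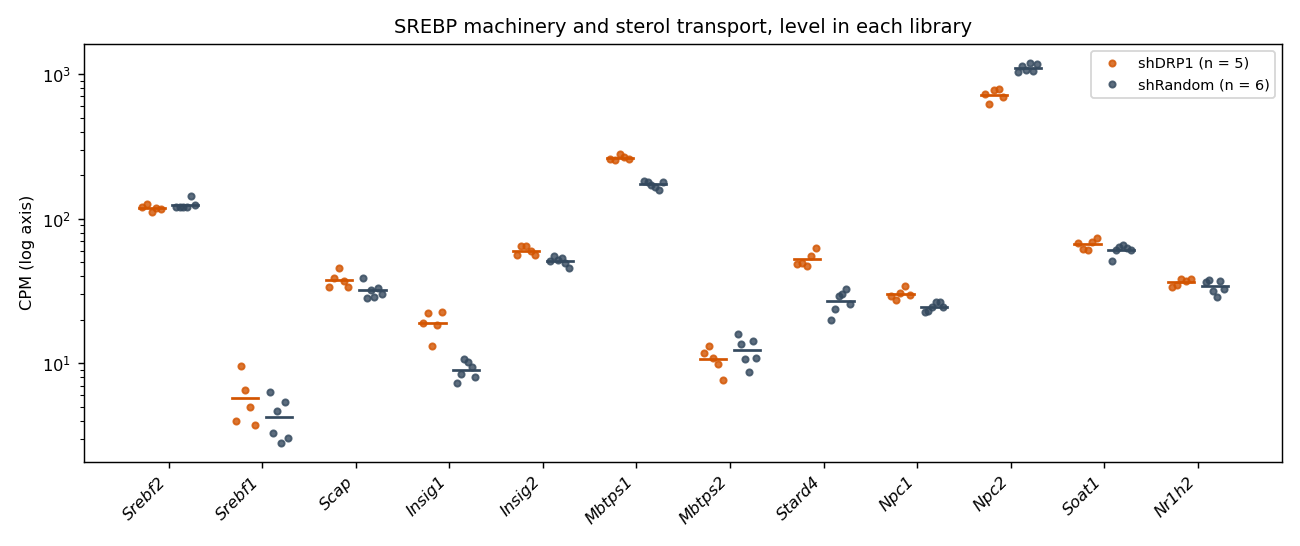
Level in CPM on a log axis of the SREBP machinery (Srebf2 to Mbtps2) and of the transport and storage genes that could be tested (Stard4 to Nr1h2), with 1 point per library and a bar at the group mean; shDRP1 libraries (n = 5) stand left of shRandom libraries (n = 6). Insig1, Insig2, Mbtps1, Stard4 and Npc1 lie above shRandom without overlap, Npc2 lies below it, and the points of Srebf2 overlap.

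Genes of sterol movement were mixed. Stard4, a soluble carrier that moves cholesterol between membranes and a known SREBP2 target, was at 48.8, 49.2, 46.8, 54.7 and 62.2 CPM in shDRP1 libraries, against 19.9, 27.4 and 32.7 CPM in shRandom libraries. Stard4 did not overlap between the groups, and its log2 fold change was 0.96 (SE 0.12, edgeR adjusted p = 4.8e-06). Npc1, the membrane protein that exports cholesterol from lysosomes, was at 30.2 ± 2.64 CPM (SD, n = 5) in shDRP1 and 24.6 ± 1.73 CPM (SD, n = 6) in shRandom libraries. Its log2 fold change was 0.30 (SE 0.08, edgeR adjusted p = 0.0036), and its 3′ end overlaps Rmc1 on the opposite strand, which was at 3.48 CPM in shDRP1 and 1.69 CPM in shRandom libraries (log2 fold change 1.03, edgeR adjusted p = 0.053). Npc2 (ENSMUSG00000021242, chr12:84754562-84773152, minus strand), the soluble lysosomal protein that hands cholesterol to NPC1, was at 728, 617, 769.6, 786 and 695 CPM in shDRP1 libraries, against 1035, 1095 and 1192 CPM in shRandom libraries. Npc2 was lower in every shDRP1 library, with a log2 fold change of -0.62 (SE 0.07, edgeR adjusted p = 2.1e-06). Of 34 tested genes within 1 Mb of Npc2, 26 were lower and none higher, with a median log2 fold change of -0.74. Over all of chromosome 12, 59 genes were higher and 221 lower of 420 tested, with a median of -0.32. How far this neighbourhood bears on Npc2 was not tested.

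Storage and efflux genes changed little or were hardly detected. Soat1, which esterifies cholesterol for storage, was at 66.5 ± 5.16 CPM (SD, n = 5) in shDRP1 and 60.6 ± 5.29 CPM (SD, n = 6) in shRandom libraries (log2 fold change 0.13, SE 0.07, edgeR adjusted p = 0.13). Soat1 was called higher under 2 other scalings and with the ribosomal RNA share as a covariate (smallest adjusted p = 0.0064). Nr1h2, which encodes the liver X receptor beta that senses oxysterols, was at 36.3 ± 2.13 CPM (SD, n = 5) in shDRP1 and 34.0 ± 3.56 CPM (SD, n = 6) in shRandom libraries (log2 fold change 0.09, SE 0.08, edgeR adjusted p = 0.31). Abca1, the cholesterol efflux pump and a liver X receptor target, had 0 to 5 counts per library in shDRP1 and 6 to 14 in shRandom, 12 counts in all shDRP1 and 52 in all shRandom libraries. With no low-count filter, Abca1 was called lower (log2 fold change -1.75, SE 0.51, edgeR adjusted p = 0.0072), at a depth that leaves its size uncertain.

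Position on the chromosome differed among members. The 33 members lie on 17 chromosomes, with 4 on chromosome 1 and 3 each on chromosomes 5, 8, 13 and X. For Mbtps1 and Npc2, the neighbours' median was close to the member's own change. Other members with smaller changes were near theirs too, such as Insig2 (0.24, neighbours' median 0.35 over 3 genes) and Dhcr7, not called (-0.11, neighbours' median -0.14). For Lss, Tm7sf2, Cyp51, Sqle and Nsdhl, it was -0.05, 0.06, 0.20, -0.06 and -0.17 on the log2 scale, far from their own changes of 0.85 to 1.81. For Acat2, 9 of 13 neighbours were higher and none lower, with a median of 0.43, below its own 1.59. Within 1 Mb of Mvd on chromosome 8, 17 of 36 tested genes were higher and 7 lower (median 0.27).

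**Figure D5:**
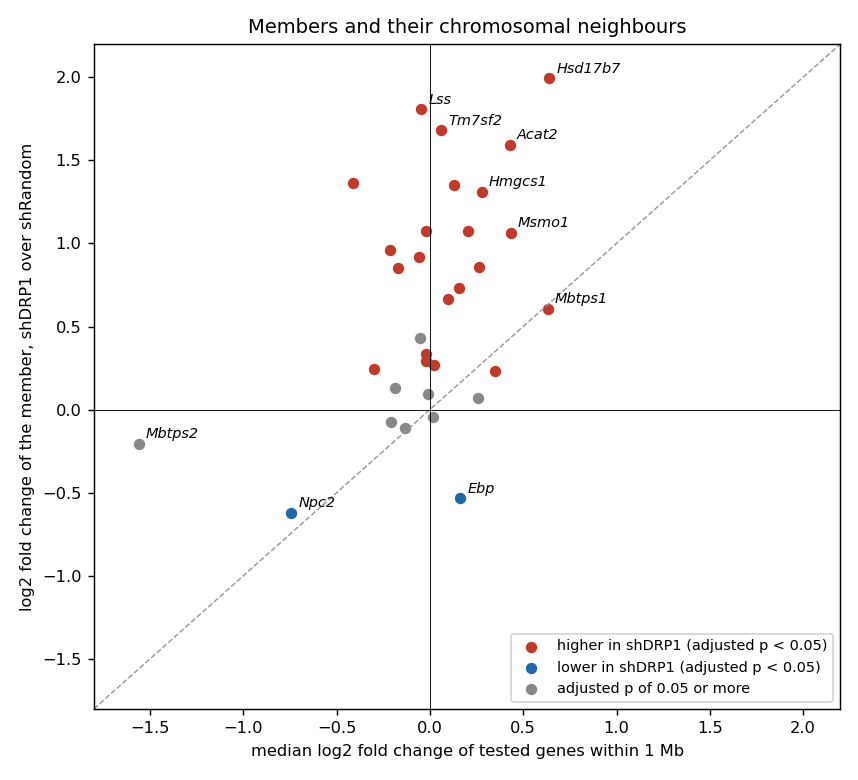
Log2 fold change of each tested member, shDRP1 over shRandom, against the median log2 fold change of the tested genes within 1 Mb of it, with the dashed line where they are equal. Mbtps1 (0.61 against 0.63) and Npc2 (-0.62 against -0.74) lie near the line, while Hsd17b7, Lss, Tm7sf2 and Acat2 lie far above it.

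Genes around the pathway were counted from lists that hold no member. Of 17 tested lipogenic enzymes and carriers, 12 were higher, 1 was lower and 4 were not called, with a median log2 fold change of 0.55 (33.9% of all genes were called higher). The genes named in it are Acly, which makes cytosolic acetyl-CoA and was at 128 CPM in shDRP1 and 54.0 CPM in shRandom libraries, and the mitochondrial citrate carrier Slc25a1, at 87.8 CPM in shDRP1 and 36.0 CPM in shRandom libraries. Their log2 fold changes were 1.25 (adjusted p = 1.4e-10) and 1.29 (edgeR adjusted p = 9.4e-10). Mid1ip1, which activates acetyl-CoA carboxylase, was lower, at 35.9 CPM in shDRP1 and 73.6 CPM in shRandom libraries (log2 fold change -1.04). The level of Fasn, the fatty acid synthase, was 94.4 CPM in shDRP1 and 71.0 CPM in shRandom libraries (log2 fold change 0.41, edgeR adjusted p = 0.0028), named here after its values were seen.

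In the list of sterol-regulated degradation and sensing, 4 of 12 tested genes were higher, 2 lower and 6 not called, with a median of -0.00014, near the shares of all genes tested that were called higher (33.9%) and lower (33.3%). The ubiquitin ligase Rnf139 was at 68.0 CPM in shDRP1 and 41.4 CPM in shRandom libraries (log2 fold change 0.72, edgeR adjusted p = 1.3e-07), and Tmem97, which binds NPC1, at 50.3 CPM in shDRP1 and 40.97 CPM in shRandom libraries (log2 fold change 0.30). Aup1, a lipid droplet protein of the degradation machinery, was lower, at 97.2 CPM in shDRP1 and 131 CPM in shRandom libraries (log2 fold change -0.44).

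Of 15 tested genes of sterol transport, uptake and storage, 6 were higher, 3 lower and 6 not called, with a median of 0.08, where 33.9% of all genes tested were called higher and 33.3% lower. Stard3, which tethers endosomes to the endoplasmic reticulum, was at 31.7 CPM in shDRP1 and 15.97 CPM in shRandom libraries (log2 fold change 0.99, edgeR adjusted p = 6.0e-07), and the lipoprotein receptor Scarb1 at 23.4 CPM in shDRP1 and 14.9 CPM in shRandom libraries (log2 fold change 0.65). The lysosomal membrane protein Scarb2 was lower, at 157 CPM in shDRP1 and 275 CPM in shRandom libraries (log2 fold change -0.81, edgeR adjusted p = 3.1e-06), as was the carrier Stard5, at 12.9 CPM in shDRP1 and 21.4 CPM in shRandom libraries (log2 fold change -0.73). Cyp27a1 and Cyp7b1 of this list were not analysed here.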

How the data were processed

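Libraries were QuantSeq 3′ libraries of C2C12 RNA, grouped by the hairpin in their titles. BlueBee is named for alignment in the series text; neither the counting program nor its strand setting is given in the sources used here. GRCm38, mm10 and DESeq2 1.22.2 are named in the submitters' processing notes. The authors deposited a table of raw counts per gene, not normalized, which every test used. Their other deposited table holds a signal, the count divided by 1 size factor per library, and served to check their scaling. Of 15113 identifiers, 15080 matched a symbol.

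Counts were tested with edgeR 4.0.16 in R 4.3.3 (filterByExpr, TMM scaling, robust quasi-likelihood fit with the group as its only term, Benjamini-Hochberg over 13025 genes, threshold 0.05). CPM uses TMM-scaled library sizes, and each standard error is the fold change divided by the root of F. The steps were tested on simulated data. They recovered 20% of changes of 1.25-fold, 40% of 1.5-fold, 76% of 2-fold and 96% of 4-fold, and 4.92% of 122 calls were false. A gene that was not called may therefore still differ. The simulation changed few genes, as many up as down, whereas 67.1% of genes were called here, so it does not test the scaling in this setting. Positions came from GENCODE M21 (GRCm38), promoters from RefSeq, and transcript ends were compared with blastn 2.17.0 over 500 bases. Libraries of a group differed beyond counting noise (chi-square over degrees of freedom 5.30 to 61.6), so none was a second count of the same library; whether libraries share RNA or a culture was not tested.

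Members and lists were chosen with earlier results of these data known. All members are named, with the value of each shDRP1 library and the lowest, median and highest of shRandom where the adjusted p was under 0.05 and the log2 fold change at least 0.5 in size; those of Srebf1 were added after they were seen. Of each other list, the 2 genes with the smallest adjusted p in each direction are named, except 1 that is not reported here. Alternatives were other scalings (median-ratio, upper-quartile, library totals alone), no and a stricter filter, DESeq2 1.42.0, limma-voom (limma 3.58.1), a replicate block, stricter calls and leaving out each library; the ribosomal RNA covariate, the fit to replicates 1 to 5 without a block and the omission of 2 libraries together were added after seeing the data. The fit to replicates 1 to 5 without a block uses the same libraries as leaving out shRandom replicate 6 and is the same fit. Precision is limited by counting at low CPM, and PCR reads carried no molecular identifiers.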

Additional observations from a re-analysis of the deposited data

Results flagged for a closer look

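Values were compared within groups of 5 and 6 libraries for the 32 tested members and Dnm1l, 66 groups in all, and 6 had 1 library set apart by more of the group's range than Dixon's 95% critical value. Chance flags about 1 in 20 groups.

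In shDRP1 libraries, Lss was at 62.4 CPM in replicate 2, next to 44.8 CPM in the nearest library, and Fdft1 was at 47.4 CPM in replicate 1, below the nearest at 50.1 CPM. In shRandom libraries, replicate 5 stood high for Lss at 17.4 CPM (nearest 12.9 CPM) and for Srebf2 at 142 CPM (nearest 123 CPM). Mvd was at 48.6 CPM in shRandom replicate 4 (nearest 38.5 CPM), and Soat1 was low at 50.7 CPM in shRandom replicate 1 (nearest 60.3 CPM). Replicate 2 of shDRP1 was also the library with the fewest counts, 12277622, and with shRandom replicate 1 it deviated most from its group mean over all genes tested (SD of log2 deviations 0.271 and 0.252).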

How the results depend on the processing

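Across members and alternatives, 683 fold changes kept direction and side of the threshold, 12 lost the call (all Scap), 3 gained it (all Soat1) and 5 turned sign. The fit without shRandom replicate 6 enters this tally again as the fit to replicates 1 to 5 without a block. The sign turned for Ggps1 under upper-quartile scaling (0.043), library totals alone (0.056) and without shDRP1 replicate 2 (0.026; -0.104 to 0.026 over each library left out), and for Srebf2 under upper-quartile scaling (0.013) and library totals alone (0.027); neither was called. These 2 scalings moved the median of all genes from 0.03 to 0.12 and 0.13 on the log2 scale, an upward shift that other changes share. Counts of members called higher ran from 21 to 23 over the alternatives with the same threshold, and 16 enzymes were higher in each except the stricter filter, which left out Idi1 (15). At an adjusted p under 0.01, 19 members were higher and 2 lower. The share of all genes tested past that threshold was not counted. With an adjusted p under 0.05 and a log2 fold change of at least 0.5 in size, 17 members were higher and 2 lower. Of all genes tested, 23.3% and 22.8% were. Leaving out each library gave 21 to 22 members higher and 2 lower; without shRandom replicate 1 and shDRP1 replicate 2 together, 22 and 2.

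Same-numbered libraries did not deviate together except at number 4 (r across genes of -0.16, -0.181, -0.277, 0.482 and -0.238 for numbers 1 to 5). Differently numbered libraries of the 2 groups also shared deviations. Their r ran from -0.735 (shDRP1 replicate 5 with shRandom replicate 1) to 0.635 (shDRP1 replicate 5 with shRandom replicate 4). The numbers were therefore not taken as pairs. With the replicate block over replicates 1 to 5, 21 members were higher and 2 lower, as without the block in the same libraries. Counting depth limits Abca1, Idi1 and Srebf1 most.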

Other observations

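Genes that use isoprenoids or attach them to proteins moved both ways. Of 15 tested, 4 were higher, 6 lower and 5 not called, with a median log2 fold change of -0.04 (33.9% of all genes tested were called higher and 33.3% lower). Zmpste24, the protease that trims prelamin A, was at 143 CPM in shDRP1 and 104 CPM in shRandom libraries (log2 fold change 0.46, edgeR adjusted p = 6.7e-05), and dolichol kinase, Dolk, at 22.2 CPM in shDRP1 and 16.3 CPM in shRandom libraries (log2 fold change 0.44). Trit1, which attaches an isopentenyl group to transfer RNA, was lower, at 21.8 CPM in shDRP1 and 56.0 CPM in shRandom libraries (log2 fold change -1.36, edgeR adjusted p = 2.1e-09), as was the farnesyltransferase subunit Fntb, at 25.9 CPM in shDRP1 and 36.7 CPM in shRandom libraries (log2 fold change -0.50).

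Of 8 tested partners and targets of the liver X receptors, 1 was higher, 4 were lower and 3 were not called, with a median of -0.30, where 33.9% of all genes tested were called higher and 33.3% lower. Those lower included Nr2f2, a nuclear receptor, at 77.0 CPM in shDRP1 and 116 CPM in shRandom libraries (log2 fold change -0.59, edgeR adjusted p = 1.2e-06), and Rxrb, a retinoid X receptor, at 26.2 CPM in shDRP1 and 36.6 CPM in shRandom libraries (log2 fold change -0.48). Lpcat3, which remodels phospholipids, was the gene called higher (log2 fold change 0.21, edgeR adjusted p = 0.025). The count of higher genes in this list was 2 under upper-quartile scaling and library totals alone and 0 without shDRP1 replicate 4 or 5 or shRandom replicate 1 or 2. Abcg1, an efflux pump that did not pass the filter, had 1 count in all shDRP1 libraries together and 52 in all shRandom libraries together.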
